A study of Homo sapiens with 9 samples.

Results

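The linker histone genes H1-1, H1-2, H1-3, H1-4 and H1-5 are 5 of the 21986 genes with a merged peak in at least 1 library of the series. They were chosen by name, and a peak was assigned to a gene when it overlapped the gene span on the same strand (GENCODE 44, GRCh38). They held 351 of the 2478204 merged peaks. Each of the 5 genes had a peak in at least 1 library, although H1-1 had 1 peak in all.

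Linker histones bind the nucleosome where DNA enters and leaves the core particle and help to compact chromatin. The genes of this family that are expressed in S phase resemble the core histone genes in structure. Their mRNAs have no introns and end, without a poly(A) tail, just after a conserved stem-loop. The stem-loop-binding protein SLBP holds that structure and takes part in the processing, export, translation and stability of replication-dependent histone mRNAs. RBFOX2, by contrast, is a splicing regulator that recognises a short motif mostly in introns, and it served as the other singleplex RNA-binding protein (RBP).

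The study tested antibody-barcode eCLIP (ABC), in which antibodies carry a DNA barcode so that RNA fragments crosslinked to several RBPs can be assigned after sequencing from 1 tube. Singleplex libraries were made for SLBP in K562, an erythroleukaemia cell line (2 replicates), and for RBFOX2 in HEK293T, an embryonic kidney cell line that the study's methods call HEK293XT (2 replicates). The 10plex pools held antibodies to DDX3, EIF3G, FAM120A, IGF2BP2, LIN28B, PRPF8, PUM2, RBFOX2, SF3B4 and ZC3H11A in K562 (3 pools, 30 libraries) and in HEK293T (2 pools, 20 libraries). No cells were treated or genetically modified according to the labels beyond the UV crosslinking that all groups share. For the HEK293T pools 1 label field names K562, and the cell line was therefore checked with erythroid genes. Peaks of all 7 marker genes (HBG1, HBG2, HBE1, GATA1, TAL1, KLF1 and ALAS2) were found among the K562 pools, whereas in the HEK293T pools only HBE1 and HBG2 had a peak, each in 2 of 20 libraries. Among the singleplex libraries 3 of the 7 genes had a peak for SLBP and none for RBFOX2. The 10 libraries of a pool share 1 tube and 1 lysate, singleplex and 10plex libraries are separate preparations, and SLBP and RBFOX2 singleplex differ in both RBP and cell line, whose parts in a difference cannot be told apart. Nothing in the labels says that replicates came from separate cultures, so the spread between them may be technical.

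The libraries differed in depth. The reads summed over merged peaks were 85303 and 19751 for SLBP, 4419195 and 2187692 for RBFOX2 singleplex, 13666 to 2191185 for the K562 pools and 22837 to 2688491 for the HEK293T pools. A gene was therefore measured as a share, the reads in its merged peaks per 10000 reads in all merged peaks of the library. A share can still depend on depth, since deeper libraries tended to list more peaks. Merged peaks numbered 339302 in RBFOX2 singleplex replicate 1 and 1743 in SLBP replicate 2. The effect of depth on the shares was not tested. The lists hold no peak below 3 reads, so a library without a peak allows no fold. In CLIP data of this kind more binding and more RNA of a transcript cannot be told apart.

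All 5 mRNAs are encoded by single exons on chromosome 6. A 16-nt match to the histone stem-loop without a mismatch was found in each 3′ UTR, 27 to 44 nt after the stop codon and 4 or 5 nt before the annotated transcript end. The last nucleotides of each mRNA are shown because the SLBP peaks lay on them, with the stem-loop in capitals, read from GRCh38 in the direction of the transcript.
H1-1 (chr6:26017032-26017059, minus strand): acccaacGGCTCTTTTAAGAGCCaccta
H1-2 (chr6:26055740-26055766, minus strand): cccaaaaGGCTCTTTTCAGAGCCacca
H1-3 (chr6:26234212-26234239, minus strand): tttaaacGGCTCTTTTCAGAGCCaccca
H1-4 (chr6:26157088-26157115, plus strand): acccaaaGGCTCTTTTCAGAGCCaccca
H1-5 (chr6:27866792-27866819, minus strand): ccccaaaGGCTCTTTTCAGAGCCaccca
The 16 nt were identical in H1-2, H1-3, H1-4 and H1-5, and H1-1 had 15 of 16 in common with them. The flanks differed more, so that H1-4 and H1-5 shared 27 of the 28 nt shown while H1-2 and H1-3 shared 22 of 27. The same search over the last 100 nt after the stop codon of all 19600 canonical coding transcripts matched 83 of them (0.423%), among them 62 of 63 core histone genes. Outside the 5 members, the testis-specific linker histone gene H1-6 had a match, and the replication-independent gene H1-10 had none.

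SLBP singleplex reads were concentrated on H1-2 and H1-4. The 5 genes together held 592.2 of 10000 peak reads in replicate 1 and 516.4 in replicate 2, against 1.57 and 4.63 in the RBFOX2 singleplex libraries. H1-2 held 418.7 and 354.4 per 10000 for SLBP, from 3572 and 700 reads, and 0.353 and 1.31 for RBFOX2. Among all genes with a peak it ranked 4th of 2560 in SLBP replicate 1 and 7th of 1126 in replicate 2. H1-4 held 156.0 and 140.8 per 10000 for SLBP, from 1331 and 278 reads, and 1.16 and 3.26 for RBFOX2, and ranked 18th and 16th for SLBP. Both genes were high in both SLBP libraries and low in both RBFOX2 libraries, with no overlap. All H1-2 reads and 78.8% of the H1-4 reads for SLBP lay in peaks whose P was at its cap. There the read number is the smallest that reaches the cap, which can make these shares too low. Reads shared by touching peaks count in both, so the read numbers can also be too high. With touching peaks counted a single time, the SLBP mean minus the RBFOX2 mean was 323 in place of 386 on H1-2. On H1-4 it was 128 in place of 146.

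H1-3 and H1-5 were lower and varied more between the SLBP replicates. H1-3 held 3.52 and 16.2 per 10000 for SLBP, from 30 and 32 reads, and 0.0520 and 0.0594 for RBFOX2. H1-5 held 13.6 and 5.06 for SLBP, from 116 and 10 reads, and had no peak in either RBFOX2 library. The order of these genes was not the same in the 2 SLBP libraries, so H1-3 and H1-5 did not differ beyond their spread, while H1-2 and H1-4 stood above them and apart from each other in both. H1-1 had a single SLBP peak of 3 reads in replicate 1, with a P that missed the enrichment limit, and no peak in any other library.

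**Figure D1:**
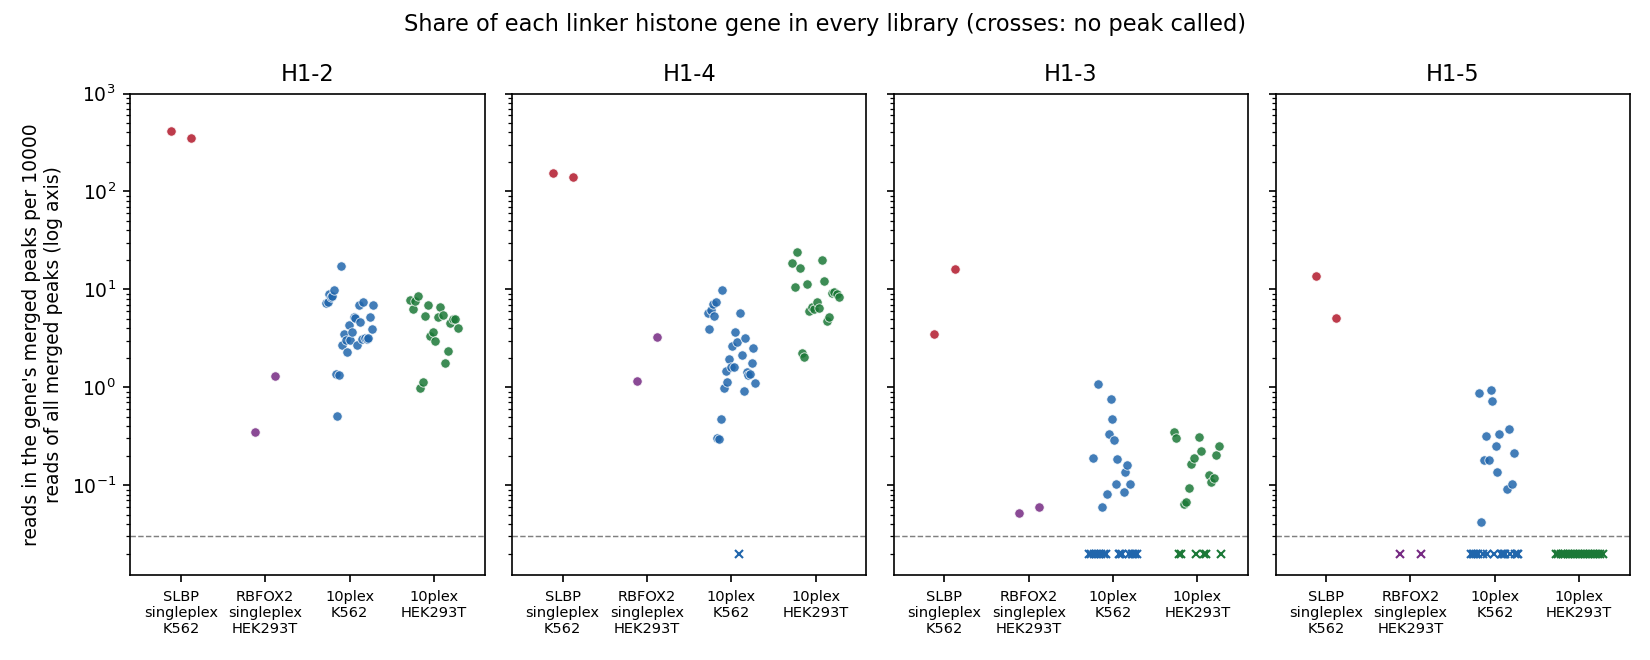
Share of H1-2, H1-4, H1-3 and H1-5 in every library, as reads in the gene's merged peaks per 10000 reads of all merged peaks, on a log axis. Each point is a library and crosses below the dashed line are libraries without a peak; both SLBP points lie above all other points in each panel.

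The mean share over the 2 replicates was 387 ± 45.5 (SD, n = 2) for SLBP and 0.832 ± 0.678 for RBFOX2 on H1-2, a ratio of 464. On H1-4 the means were 148 ± 10.8 and 2.21 ± 1.48 and the ratio was 67.1, and on H1-3 they were 9.86 ± 8.97 and 0.0557 ± 0.00522 with a ratio of 177. H1-5 had a mean of 9.33 ± 6.04 for SLBP. In 4 of the 5 genes both SLBP libraries lay above both RBFOX2 libraries, compared with 2.78% of the 16932 genes with a peak in these 4 libraries. With 2 libraries against 2, a two-sided exact permutation test cannot go below p = 0.333, which it gave for those 4 genes.

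The same genes were compared within K562, the SLBP line, with the 10 RBPs of the pools. SLBP lay above all 3 libraries of an RBP in 40 of 50 pairs of gene and RBP, that is for H1-2, H1-3, H1-4 and H1-5 against each of the 10 RBPs. The same 2 SLBP libraries enter each pair and the RBPs of a pool share 1 tube, so the 40 pairs are not separate results. A share over all genes was not taken for the single RBPs. Against the mean of the 10 RBPs in each pool, the SLBP share was 75.2 times as high on H1-2 (pool means 5.14 ± 1.17, SD, n = 3), 51.8 times on H1-4 (2.86 ± 0.860), 73.0 times on H1-3 (0.135 ± 0.0792) and 58.9 times on H1-5 (0.158 ± 0.0553). Of the 16500 genes with a peak in these libraries, 1.3% had both SLBP libraries above all 3 pool means. Each of those 4 genes reached p = 0.1, the smallest that a two-sided exact permutation test of 2 against 3 allows. For RBFOX2 in the K562 pools, where the line matches SLBP's, H1-2 held 3.11 to 7.48 per 10000 and the SLBP mean was 76.3 times the mean of its 3 libraries.

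Core histone genes, which carry the same stem-loop, were used as a reference list. Of 63 such genes 45 had a peak in both SLBP libraries, and the same number lay above both RBFOX2 libraries. Their median mean SLBP share was 12.8 per 10000, and 33 of them lay above H1-5 and above H1-3. By the mean of the 2 libraries only H4C8, a histone H4 gene, exceeded H1-2, and 4 exceeded H1-4. H4C8 held 360.6 and 435.4 per 10000, below H1-2 in replicate 1 and above it in replicate 2. Together the core histone genes held 2706 and 3493 per 10000 for SLBP against 3.59 and 7.34 for RBFOX2. H1-10 had no SLBP peak, and H1-6 had 1 peak of 7 reads in replicate 1. Of 10 genes for the histone pre-mRNA 3′ end processing machinery (SLBP, LSM10, LSM11, ZNF473, NPAT, CASP8AP2, ERI1, CPSF2, CPSF3 and SYMPK), 3 had a peak in an SLBP library and all 10 had a peak in both RBFOX2 singleplex libraries. The smallest peak of 3 reads is 0.352 and 1.52 per 10000 in the SLBP libraries, above many of the RBFOX2 values of these genes, so no order between the RBPs was read from them.

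The SLBP peaks lay at the 3′ end of the mRNAs. Peaks on the stem-loop made up 13 of the 17 SLBP peaks and held 86.4% (95% Wilson interval 85.5 to 87.4) and 99.7% (99.1 to 99.9) of the reads of the 5 genes in replicates 1 and 2. These intervals cover counting error only, and reads shared by touching peaks count in both. On H1-2 the peaks covered nt 687 to 730 of 731 in replicate 1 and nt 686 to 730 in replicate 2, each as a pair of touching peaks with 1788 and 1784 reads and with 350 and 350 reads. On H1-4 they covered nt 742 to 785 of 787 in both libraries. On H1-3 a peak ran from nt 709 (replicate 1) or 740 (replicate 2) to nt 775 of 776, and on H1-5 the peaks ended at nt 796 and 795 of 797. The H1-1 peak of 3 reads ran over its stem-loop, from nt 724 to 755 of 756. On all 5 genes the 3′-most SLBP peak ended 1 or 2 nt before the annotated transcript end.

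**Figure D2:**
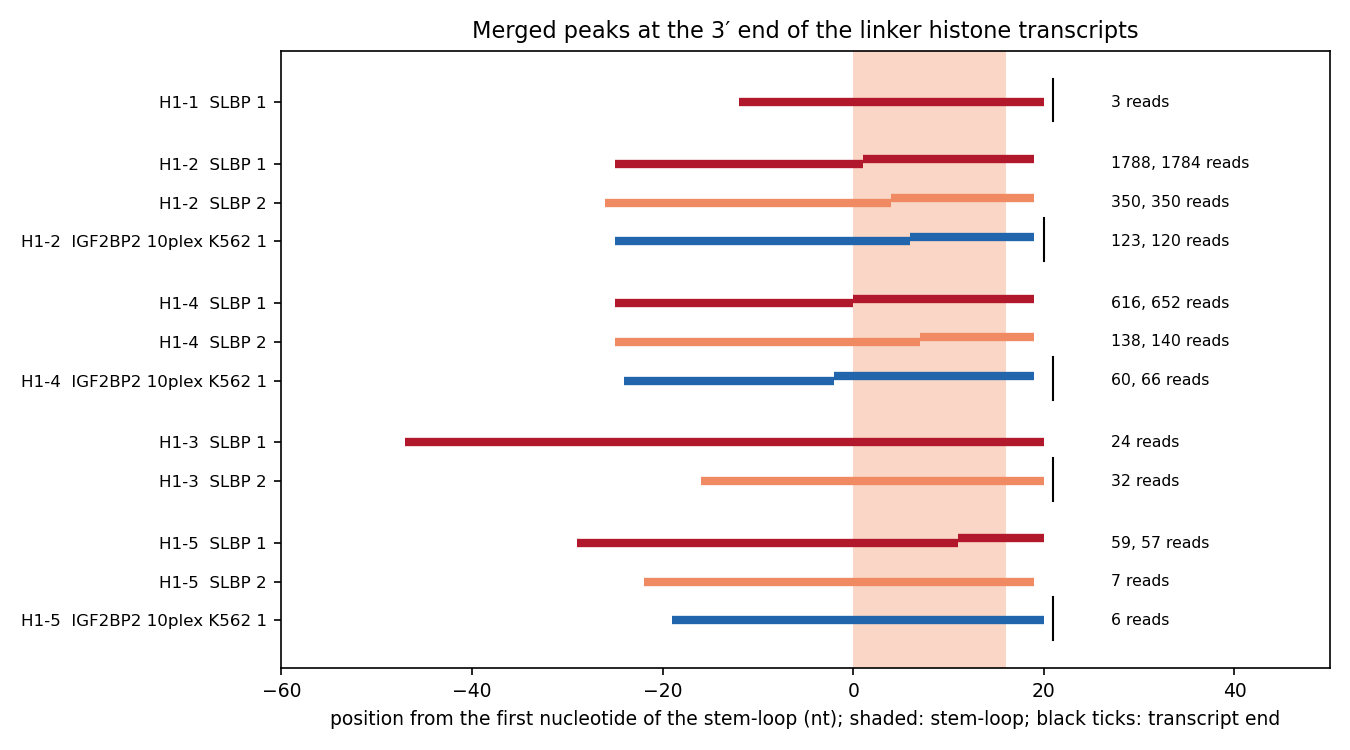
Merged peaks at the 3′ end of the linker histone mRNAs for SLBP replicates 1 and 2 and for the IGF2BP2 library of K562 10plex replicate 1, with distance in nt from the first nucleotide of the stem-loop on the x axis, the stem-loop shaded and the transcript end as a black tick. The SLBP peaks run across the stem-loop on every gene, with 1788 and 1784 reads in the pair on H1-2 and 3 reads on H1-1.

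The centre of an enriched SLBP peak lay at a median of -17 nt from the centre of the stem-loop, that is on its 5′ side, and 29.5 nt before the transcript end. The measure depends on the point chosen, since peaks were 1 to 67 nt long and several were split at the stem-loop. In replicate 2 alone the medians were -9.5 nt and 22 nt. Of the 4 SLBP peaks off the stem-loop, 1 lay in the 3′ UTR of H1-4 directly before it (nt 742 to 766, replicate 1), with 616 reads, and touched the peak of 652 reads on the stem-loop. The other 3 were smaller and lay in the coding sequence, with 6 reads on 41 nt of H1-3 (replicate 1), 63 reads on 1 nt of H1-4 (nt 624, replicate 1) and 3 reads on H1-5 (nt 551 to 560, replicate 2).

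None of the 24 RBFOX2 singleplex peaks and none of the 136 peaks of the HEK293T pools overlapped a stem-loop of the 5 genes. In the K562 pools 4 of 174 did, all in 1 library that is described further on. By their centres, the 10plex peaks lay instead in the coding sequence, 167 of 174 in K562 and 136 of 136 in HEK293T. They piled up at the same places for most RBPs. On H1-2, nt 491 to 516 were covered in 30 of 30 K562 libraries and nt 472 to 537 in 20 of 20 HEK293T libraries. On H1-4, nt 508 to 522 were covered in 26 of 30 and nt 476 to 538 in 20 of 20. On H1-5, nt 533 to 553 were covered in 10 of 30 K562 libraries, and on H1-3, nt 491 to 521 in 10 of 20 HEK293T libraries. These positions encode the lysine-rich C-terminal tail that distinguishes linker histones, and the RBFOX2 singleplex peaks lay there too, in both libraries on H1-2 (nt 451 to 539) and on H1-4 (nt 500 to 563).

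The 30 nt of the coding sequence at the centre of these pile-ups follow, with GRCh38 positions, since the 10plex peaks of each gene coincided there most often. That was in most 10plex libraries on H1-2 and H1-4, but in at most 15 and 10 of the 50 on H1-3 and H1-5. They hold no part of the stem-loop, and no capitals are used.
H1-2 (chr6:26055954-26055983, minus strand): agagcgctaagaaaacaccgaagaaagcga
H1-3 (chr6:26234467-26234496, minus strand): taccccgaagaaaagcatcaaaaagactcc
H1-4 (chr6:26156825-26156854, plus strand): cacccccaagaagagcgccaagaagacccc
H1-5 (chr6:27867036-27867065, minus strand): tccgaagaaggcgaagaagcccgcggcggc
The windows were chosen by where peaks lay, and A and G made up 23, 18, 17 and 20 of the 30 nt in H1-2, H1-3, H1-4 and H1-5. A peak overlapped the H1-2 window in 30 of 30 K562, 20 of 20 HEK293T and 2 of 2 RBFOX2 singleplex libraries but in 0 of 2 SLBP libraries, and the H1-4 window in 27, 20, 2 and 0. The H1-3 window was overlapped in 5 K562, 10 HEK293T, 1 RBFOX2 singleplex and 0 SLBP libraries, and the H1-5 window in 10, 0, 0 and 1. Few 30-mers of these mRNAs occur elsewhere in GRCh38, 6 of 702 on H1-2, 6 of 768 on H1-5, none on the other 3 genes and none that overlap a stem-loop.

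**Figure D3:**
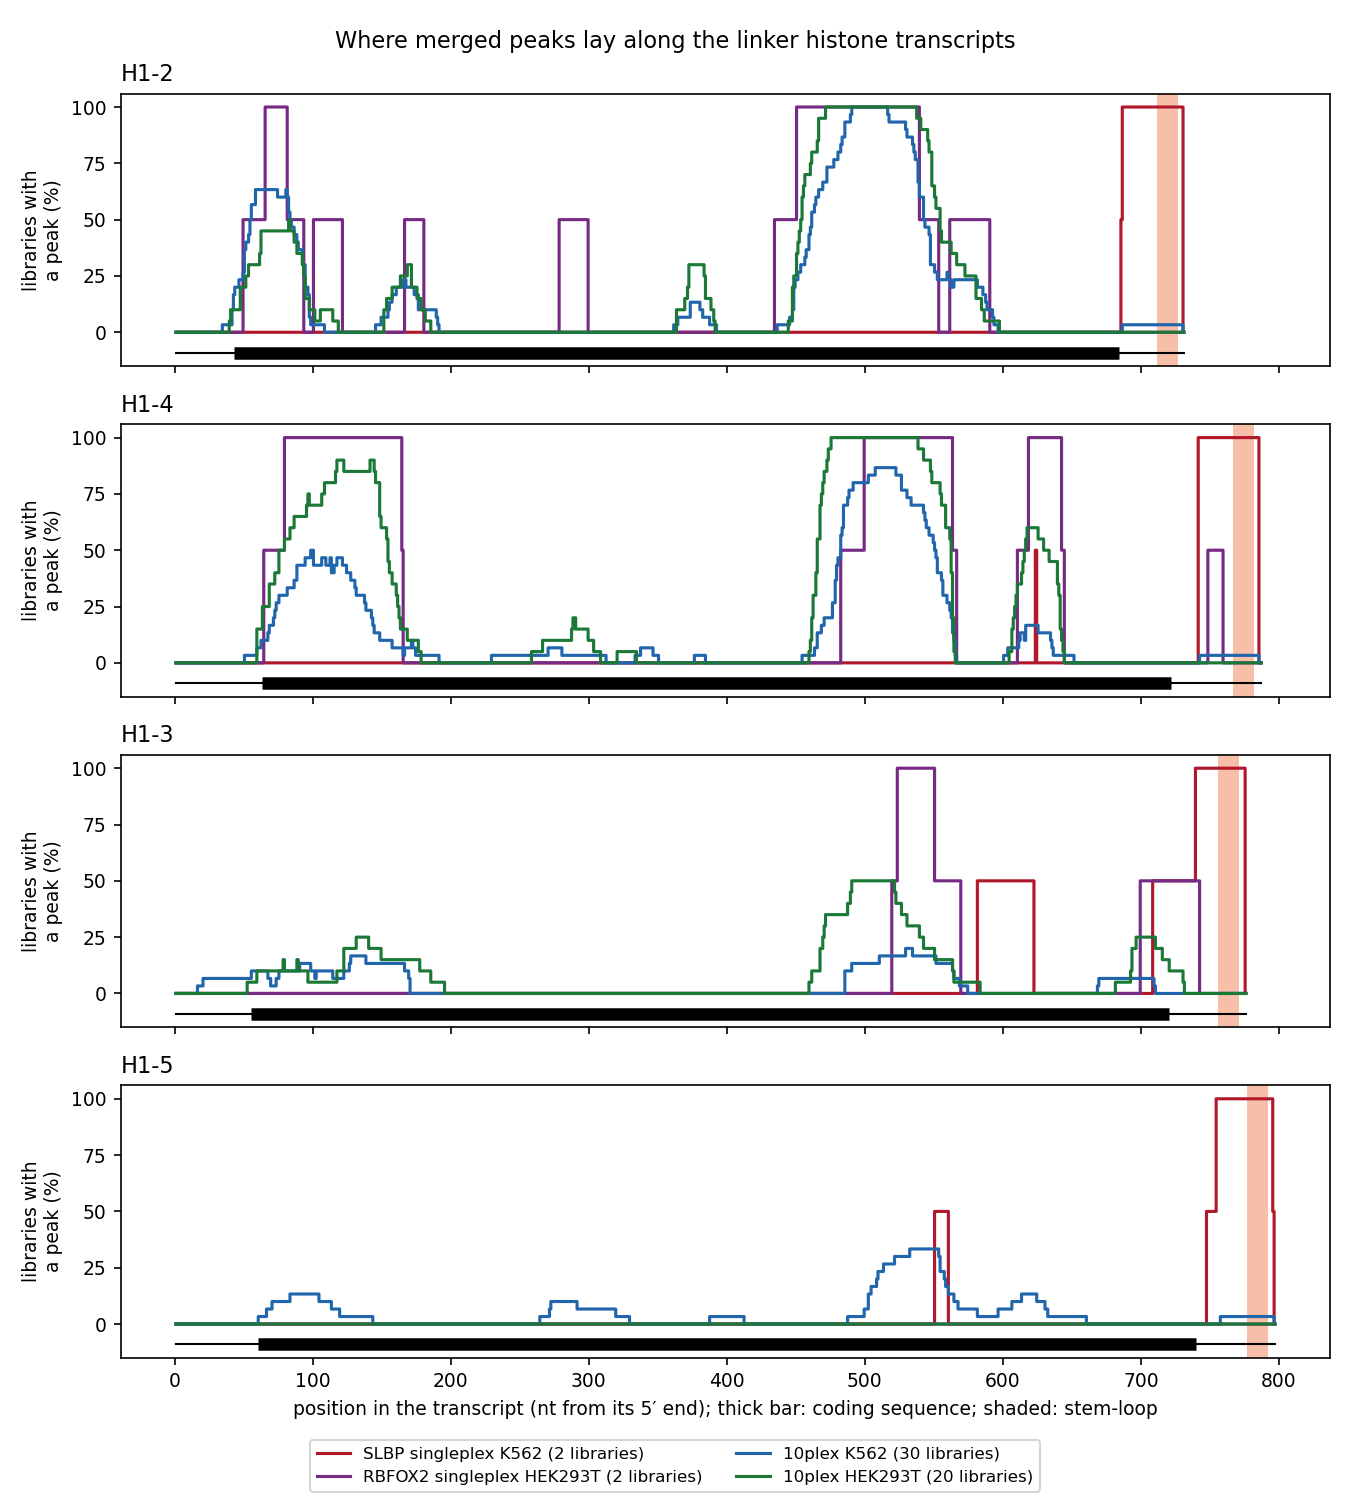
Percent of libraries with a merged peak at each nucleotide of the H1-2, H1-4, H1-3 and H1-5 mRNAs, for the 2 SLBP, 2 RBFOX2 singleplex, 30 K562 10plex and 20 HEK293T 10plex libraries. The SLBP peaks lie at the shaded stem-loop, and the 10plex peaks lie mostly in the coding sequence (thick bar), with the highest share of libraries near nt 500 on H1-2 and H1-4.

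A second site lay near the start of the coding sequence, and many RBPs had peaks there. On H1-4, nt 118 to 122 were covered in 18 of 20 HEK293T libraries. On the same mRNA nt 80 to 164 were covered in 2 of 2 RBFOX2 singleplex libraries, and at most 15 of 30 K562 libraries coincided. On H1-2, nt 59 to 74 were covered in 19 of 30 K562 libraries and nt 83 in 10 of 20 HEK293T libraries. Fewer RBPs had a peak on the start codon itself. Peaks of DDX3, an RNA helicase that acts in translation initiation, overlapped the H1-2 start codon in 3 of 3 K562 and 1 of 2 HEK293T libraries. EIF3G, a subunit of the initiation factor eIF3, had the same counts. On H1-4 the start codon was overlapped by DDX3 in 3 of 3 K562 and 2 of 2 HEK293T libraries, and by EIF3G in 2 of 2 HEK293T and none of the K562 libraries. For the other RBPs a peak on the H1-2 start codon was seen in no library, and on the H1-4 start codon in 1 PUM2 library of HEK293T and 1 RBFOX2 singleplex library. The difference between RBPs in these counts was not tested.

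Within the pools, EIF3G and DDX3 had high shares of H1-2 and H1-4, and PUM2 had a high share of H1-4 in HEK293T. For EIF3G the H1-2 share was 8.31, 8.57 and 9.75 per 10000 in the 3 K562 pools and 7.57 and 8.51 in the HEK293T pools. For DDX3 it was 7.27, 7.38 and 9.01 in K562 and 7.83 and 6.23 in HEK293T. FAM120A, an RBP that binds mostly 3′ UTRs, was at the low end with 1.37, 0.507 and 1.35 in K562 and 0.989 and 1.14 in HEK293T. On H1-4 EIF3G held 7.08, 5.36 and 7.37 in K562 and 24.3 and 16.5 in HEK293T. DDX3 held 5.67, 3.90 and 6.09 in K562 and 18.6 and 10.5 in HEK293T, where PUM2 held 20.1 and 12.2. FAM120A was low on H1-4 too, with 0.306, 0.297 and 0.470 in K562 and 2.26 and 2.05 in HEK293T. The summed share of the 5 genes was highest for EIF3G in both lines, 16.1 ± 2.65 (SD, n = 3) in K562 and 28.4 ± 4.84 (n = 2) in HEK293T, and lowest for FAM120A, 1.53 ± 0.650 and 3.29 ± 0.0396. In HEK293T PUM2 (22.2 ± 6.40) and DDX3 (21.9 ± 6.86) followed, and the libraries of these 3 RBPs overlapped. Depth differed between the RBPs, and its part in their order was not tested. In HEK293T PUM2 had 22837 and 42481 reads, EIF3G 76622 and 148034, and FAM120A 1728887 and 2688491. The order was not that of depth throughout. ZC3H11A (119180 and 230770 reads) was shallower than DDX3 (370379 and 556837), with a lower summed share of 13.3 ± 1.23.

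Each RBP was tested against the other 9 of its pool with a one-sided exact permutation of the RBP labels within pools, over all genes with a peak in at least 5 libraries. In K562 no member passed after Benjamini-Hochberg adjustment, 0 of 40 pairs of gene and RBP compared with 4.98% of all 112980 pairs. The nearest was EIF3G on H1-4, 6.60 ± 1.09 (SD, n = 3) against 2.45 ± 0.841 for the other 9, above them in 3 of 3 pools (exact permutation p = 0.006, adjusted p = 0.0907). With touching peaks counted a single time this pair passed the exact test (adjusted p = 0.0262). In all 3 of 40 pairs had an unadjusted exact p below 0.05, the other two being LIN28B on H1-3 (0.522 ± 0.216 against 0.0920 ± 0.0902, p = 0.011, adjusted p = 0.139) and LIN28B on H1-5 (0.553 ± 0.492 against 0.115 ± 0.109, p = 0.021, adjusted p = 0.224). The exact test did pass for EIF3G on the replication-independent gene H1-10, with 9.85, 10.9 and 15.2 per 10000 against 0.732 ± 0.0788 for the other 9 (adjusted p = 0.0258).

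In HEK293T the exact permutation test called 0 of 30 member pairs and 0.0% of all 136320 pairs. With 2 pools its smallest p is 0.01, which the adjustment raised to 0.173, so no pair could pass. Unadjusted exact p-values below 0.05 were found for 3 of 30 pairs: EIF3G on H1-4 (20.4 ± 5.51 against 8.66 ± 1.77, p = 0.01), DDX3 on H1-3 (0.328 ± 0.0323 against 0.107 ± 0.0304, p = 0.01) and EIF3G on H1-2 (8.04 ± 0.666 against 4.34 ± 0.121, p = 0.02). The adjusted values were 0.173, 0.173 and 0.267, and the direction was the same in 2 of 2 pools for each.

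The peaks were next read against both backgrounds of the study. Over the external background, which by the study's methods is RNA-seq, the limits for an enriched peak were a P under 0.001 together with a more than 8-fold excess. Of the SLBP peaks on the 5 genes 16 of 17 were enriched, compared with 55.3% of all SLBP peaks. That share mixes unlike libraries. In replicate 1 it was 9 of 10, compared with 1678 of all 4445 peaks. In replicate 2 it was 7 of 7, where 1741 of all 1743 peaks were enriched, so replicate 2 sets the 5 genes apart from nothing. The log2 fold was 13.77 to 14.05 on H1-2 and 9.22 to 12.59 on H1-4, over 1 background read (or none, which counts as 1) at each peak. The corresponding numbers were 16 of 24 for RBFOX2 singleplex (10.0% of all peaks), 159 of 174 for the K562 pools (49.9%) and 125 of 136 for the HEK293T pools (34.7%). The K562 pools also mix unlike libraries, such as 933 of 938 peaks enriched for PUM2 and 5691 of 17823 for IGF2BP2, both in replicate 1. On H1-2 the background held 1 to 6 reads under the K562 10plex peaks and 7 to 518 under the HEK293T peaks, whereas on H1-4 it was 1 to 7 and 1 to 6. These reads are not scaled to the depth of the background, which was unlike between the lines over all peaks. It held 1 read under 94.1% of all DDX3 peaks in K562 replicate 1 and under 6.59% in HEK293T replicate 1. For RBFOX2 in HEK293T replicate 1 it was 71.3%. No difference in H1-2 RNA was read from it.

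Against the complement control (CC), in which the other 9 libraries of a pool form the background, the share of enriched peaks was below that of all peaks in K562 replicate 3 and near it elsewhere. In K562 replicate 3, where the lists give P and fold, 2 of 64 peaks on the 5 genes were enriched, compared with 15.9% of all peaks, and 13 had P below 0.001 with any fold above 1. In K562 replicates 1 and 2, where only a P is given and peaks in repeats were removed, 27 of 97 were enriched (32.3% of all peaks). In HEK293T 29 of 105 were (24.4%). The lists are incomplete on H1-4, where they hold 33 peaks for HEK293T and 29 for K562 replicates 1 and 2.

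The CC-enriched peaks were read against the share of all peaks that were enriched for the same RBP. Over all pools DDX3 had 6 of 17 in K562 (29.1% of all its peaks were enriched) and 12 of 17 in HEK293T (27.3%). EIF3G had 4 of 13 (39.0%) and 4 of 6 (33.0%), and PRPF8, a core spliceosome protein, had 4 of 24 (30.8%) and 6 of 15 (40.2%). IGF2BP2 had 6 of 20 (17.5%) and 5 of 14 (12.4%), and its 6 peaks in K562 all came from replicate 1, where 6 of 7 were enriched, against 0 of 5 and 0 of 8 in replicates 2 and 3. The counts of EIF3G and DDX3 in K562 and of PRPF8 in HEK293T were thus near the share of all peaks of the RBP. On the first 100 nt of the H1-2 coding sequence DDX3 had a CC-enriched peak in both libraries of K562 replicates 1 and 2 and in 2 of 2 HEK293T libraries, and so did EIF3G, while IGF2BP2 did in 0 of 2 and 2 of 2. In K562 replicate 3 both had a peak there, DDX3 at nt 35 to 94 with a log2 fold of 2.12 and EIF3G at nt 43 to 92 with 2.16, below the 8-fold limit, and neither was called enriched. On the same stretch of H1-4 DDX3 had a CC-enriched peak in 1 of 2 K562 and 0 of 2 HEK293T libraries. EIF3G had one in 0 of 2 in each line. The H1-4 lists are incomplete, and those of HEK293T hold no DDX3 or EIF3G peak on that stretch. LIN28B, an RBP known for binding let-7 precursors and coding sequences, had 9 of 20 in K562, near the 44.2% of all its peaks, and 0 of 10 in HEK293T (37.5%). Of these 9 peaks, 1 lay on the shared pile-up of H1-5 and the others lay away from it, at nt 172 to 191 and 230 to 280 of H1-4 (11 and 19 reads), at nt 265 to 329 and 272 to 319 of H1-5 (14 and 10 reads) and near both ends of H1-3 (nt 17 to 67, 21 to 69, 669 to 709 and 670 to 710, with 5 to 10 reads). At those other sites the peak lists of the other 9 libraries of the pool held 0 reads. FAM120A, PUM2 and ZC3H11A had no CC-enriched peak on the 5 genes in either line, although 24.3%, 39.6% and 28.8% of all their peaks in K562 and 29.2%, 30.8% and 20.3% in HEK293T were enriched. RBFOX2 had 0 of 22 in K562 (13.6%) and 1 of 12 in HEK293T (10.2%), and SF3B4 had 0 of 14 (37.9%) and 1 of 10 (35.0%).

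Comparing the lines, H1-4 was higher in HEK293T and H1-2 was not. On H1-4 both HEK293T libraries lay above all 3 K562 libraries for 9 of 10 RBPs, compared with 33.8% of pairs of gene and RBP over all genes. The RBPs of a pool share 1 tube, so the 9 are not separate observations. SF3B4, a component of the spliceosome's U2 snRNP, held 9.18 and 9.42 per 10000 in HEK293T and 1.44, 1.33 and 1.37 in K562, a ratio of 6.74. ZC3H11A, an mRNA export factor, held 8.98 and 8.45 against a mean of 1.80 ± 0.706 (SD, n = 3). For PUM2, the Pumilio protein, the values were 20.1 and 12.2 against 2.93 and 5.78 in replicates 1 and 3, with no peak in replicate 2. Over the 9 RBPs with an H1-4 peak in every library the ratio of the means ran from 2.12 to 6.74, with a median of 3.09. IGF2BP2 was the RBP that overlapped (11.4 and 6.02 against 9.90, 0.980 and 1.46), and without K562 replicate 1 it lay above too.

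On H1-2 the lines overlapped for 8 of 10 RBPs, with ratios from 0.404 to 1.51 and a median of 0.948. SF3B4 was higher in HEK293T (4.49 and 5.02 against 3.20, 3.09 and 3.17) and RBFOX2 was higher in K562 (4.61, 3.11 and 7.48 against 1.77 and 2.32). H1-3 lay above in HEK293T for 4 RBPs (DDX3, FAM120A, IGF2BP2 and SF3B4) and in K562 for LIN28B (0.336, 0.759 and 0.471 against 0.192 and no peak). The 4 calls for HEK293T are uncertain. They rest on 3 to 18 reads a HEK293T library, and each of these RBPs had an H1-3 peak in 1 of 3 K562 libraries. Libraries without a peak count as 0, although a peak of 3 reads in a shallow library can exceed the HEK293T share. H1-5 had a peak in 14 of 30 K562 and 0 of 20 HEK293T libraries. H1-1 had no peak in the pools of either line.

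Over the 50 pairs of gene and RBP, 14 had both HEK293T libraries above and 3 had all K562 libraries above. The 14 include the 4 uncertain calls on H1-3. The 50 include pairs without a peak in either line, 10 on H1-1, 1 on H1-3 and 3 on H1-5. The background over 122225 pairs of all genes was 33.8% and 11.7%, and it holds only pairs with a peak in either line. The counts over the 50 pairs are therefore not on the same base as this background. No pair could pass 0.05, since a two-sided exact permutation test of 2 against 3 libraries gives 0.1 at the lowest, as it did for the 9 RBPs on H1-4. In HEK293T 47.5% of the H1-4 reads and 49.5% of the H1-2 reads lay in peaks with P at the cap, −log10 P of 400. Those shares may be too low for that reason, while reads shared by touching peaks count in both. H1-10 lay above in HEK293T for 7 of 10 RBPs.

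**Figure D4:**
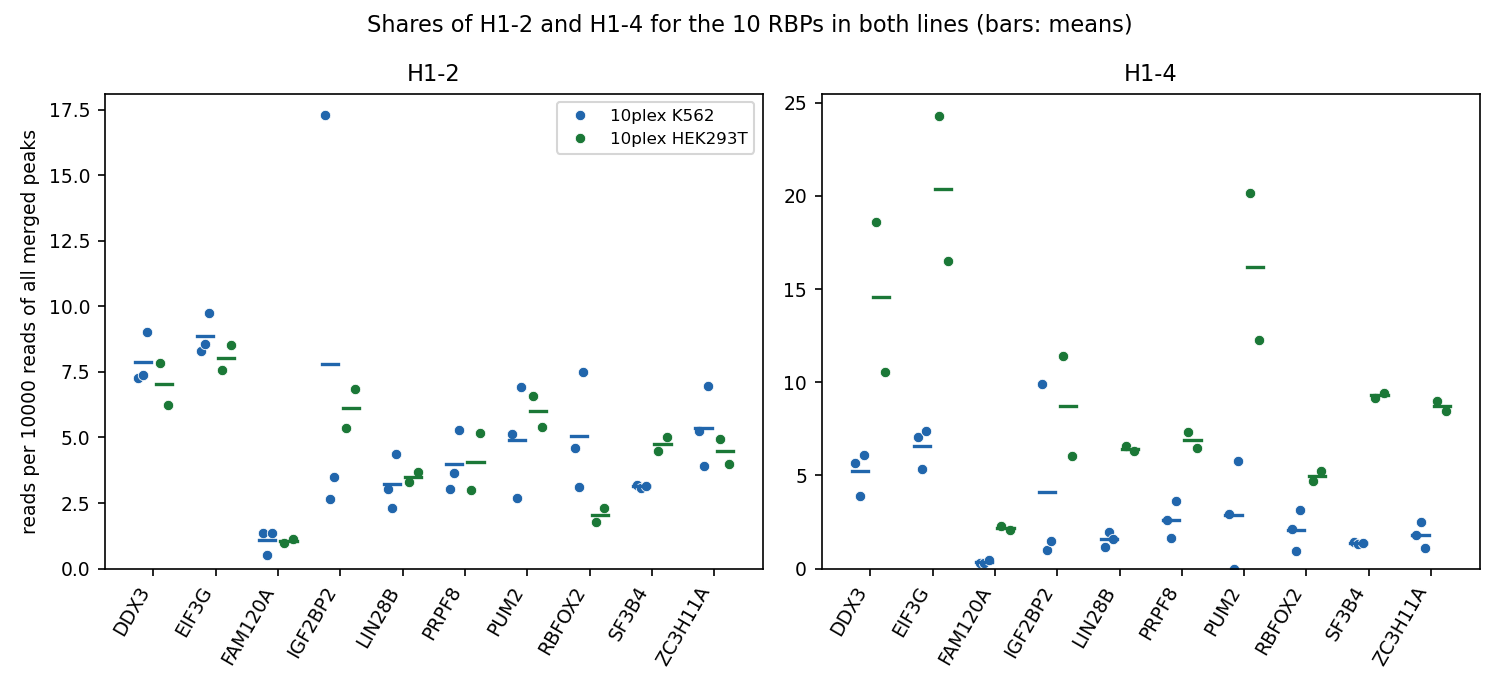
Share of H1-2 (left) and H1-4 (right) for the 10 RBPs, as reads per 10000 reads of all merged peaks, with a point for each of the 3 K562 and 2 HEK293T libraries and bars at the means. The lines overlap on H1-2 for 8 RBPs, and HEK293T lies above K562 on H1-4 for 9.

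The IGF2BP2 library of K562 replicate 1 stood apart from the other 10plex libraries. IGF2BP2 is an mRNA-binding protein that mostly occupies 3′ UTRs. In that library 60.3% (95% Wilson interval 56.1 to 64.5) of the reads on the 5 genes lay in peaks on the stem-loop, against 0% in replicates 2 and 3. The peaks held 123 and 120 reads on H1-2 (nt 687 to 730), 66 on H1-4 (nt 765 to 785) and 6 on H1-5 (nt 758 to 796), and the peak lists of the other 9 libraries of that pool held 0 reads there. Its H1-2 share was 17.3 per 10000, against 2.67 and 3.50 in replicates 2 and 3, and its H1-4 share was 9.90 against 0.980 and 1.46. The core histone genes moved with it, since 85.7% of their reads in that library lay on stem-loops of 33 genes, against 18.1% and 10.8% in replicates 2 and 3. In the 28 other K562 libraries with a core histone peak that value ran from 0% to 25.0% with a median of 4.27%, in HEK293T from 0% to 7.56%, in RBFOX2 singleplex it was 8.94% and 9.16%, and in SLBP it was 80.1% and 81.8%. What set this library apart was not tested.

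**Figure D5:**
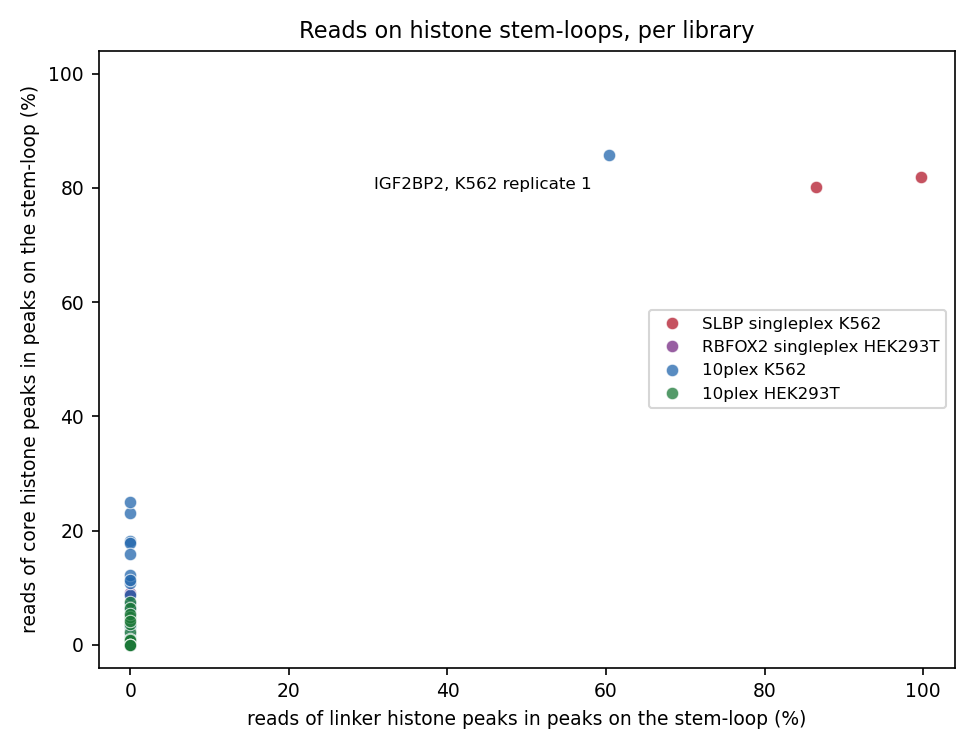
Percent of reads in peaks on the stem-loop, for linker histone peaks on the x axis and core histone peaks on the y axis, with a point for each library that has core histone peaks. Both SLBP libraries and the IGF2BP2 library of K562 replicate 1 (60.3% and 85.7%) lie apart from the others, which are at 0% on the x axis.

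Without that library, SLBP still lay above the 10 RBPs in 40 of 50 pairs, and the highest summed share of the 5 genes in the K562 pools fell from 27.5 to 19.1 per 10000, in an EIF3G library, with the median at 6.41 in place of 6.44. CC-enriched peaks on the 5 genes numbered 52 in place of 58. IGF2BP2 then lay above in HEK293T on H1-2 (6.11 ± 1.04 against 3.09 ± 0.586, SD, n = 2 each) and on H1-4 (8.71 ± 3.80 against 1.22 ± 0.337), with p = 0.333, the smallest an exact permutation test of 2 against 2 can give.

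Across the 22 sets of RBP and line, the genes whose mean share was most like that of a member were nearly all histone genes. By Pearson's correlation over the 22 set means they were H4C5, H3C12 and H2BC4 for H1-2 (r = 0.9998 for H4C5), H2BC5, H2BC26 and the unnamed gene ENSG00000291336 for H1-4 (0.996 for H2BC5), H1-5, H2AC17 and H3C12 for H1-3 (0.999 for H1-5), and H1-3, H2BC8 and H2BC7 for H1-5. These values rest on the SLBP set, which is far above the other 21. Without it r fell to 0.710 for H1-2 with H4C5, 0.885 for H1-4 with H2BC5 and 0.681 for H1-3 with H1-5. The sets of a line share tubes and depth, and 13975 genes were eligible, so the correlations are a description only. H1-1 had a peak in 1 set and was left out.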

How the data were processed

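Peaks on the 5 genes were taken from 54 ABC libraries. The authors trimmed reads with cutadapt 2.8, aligned them to GRCh38 with STAR 2.7.6, per the labels, and called peaks with CLIPper. Groups follow the labels, and the RBP of a 10plex list follows its name, since the labels list all 10 antibodies of a pool. The deposited merged peak lists give −log10 P (capped at 400) and log2 fold over an external background. The CLIPper lists give a p-value (or score) per peak as deposited, and the CC lists of the authors give P with or without log2 fold.

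Read numbers were recovered from fold and P as the lowest whole ratio times the factor whose P matched, or by peak names. At the cap without names the smallest reads that reach it were used, which came within 10% of the named reads for 90.6% of 1724 capped peaks with names. Reads in touching peaks count in each. Where a CC list has no fold, direction came from the reads of the other 9 libraries, which gave the direction of the deposited fold for 99.9% of 58991 peaks of replicate 3. The tests were checked on simulated data. Shares, exact permutation tests and Benjamini-Hochberg adjustment used Python 3.11.15, numpy 2.4.6, scipy 1.17.1, pandas 2.3.3 and bedtools 2.31.1. The members, lists and windows were chosen with earlier results of these data known. The text names the 5 members, H1-6 and H1-10, the core histone gene with the highest SLBP share and the 3 genes most alike to each member. The alternatives were other denominators, peak filters, gene spans, limits, pairings and left-out replicates. Precision is set by depth, and the spread covers 2 or 3 libraries a group.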

Additional observations from a re-analysis of the deposited data

Results flagged for a closer look

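On H1-3, the share for DDX3 minus that for the other 9 RBPs had opposite signs in the lines: it was -0.0790 per 10000 in the K562 pools, where DDX3 lay below the mean of the others in each pool, and 0.221 in the HEK293T pools, where it lay above in both. The K562 value minus the HEK293T value was -0.300. DDX3 had no H1-3 peak in K562 replicates 1 and 2 and 1 peak of 4 reads in replicate 3 (0.192 per 10000), so the K562 value rests mostly on libraries without a peak. The difference between the lines was not tested.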

How the results depend on the processing

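Of 119 alternative values 100 stayed near the main value. Near meant a count within a set factor of it, a share or distance within the spread, or a gene difference of the same sign. No gene difference between SLBP and RBFOX2 reversed. A count has no sign to reverse, and the distance to the stem-loop changed sign for 3′ ends. The mean summed SLBP share of the 5 genes, 554.3 per 10000, was 865.0 over reads in nuclear protein-coding genes and 480.6 with touching peaks counted a single time. Enriched SLBP peaks numbered 16, and 7 to 9 with either replicate left out, by construction. With touching peaks counted a single time 1 pair passed in the K562 pools (EIF3G on H1-4) in place of 0. Pairs with K562 above HEK293T numbered 3, against 5 over protein-coding genes, 6 with touching peaks counted a single time and 4 to 7 with a replicate left out. The median ratio of HEK293T to K562 on H1-2 was 0.948 and became 1.23 with enriched peaks only, while H1-4 stayed higher in HEK293T for 10 of 10 RBPs in all 5 alternatives. From the stem-loop the median distance was -17 nt for peak centres, -32.5 nt for 5′ ends, 6.5 nt for 3′ ends and -20 to -9.5 nt with a replicate left out. From the transcript end it was 29.5 nt, 44.5 nt, 6 nt and 22 to 31.5 nt. Against the external background 284 10plex peaks were enriched, against 58 for CC. These counts differ in limits and lists. The CC count used P and direction without a fold limit outside K562 replicate 3, and its K562 replicate 1 and 2 lists lack peaks in repeats. The cause of these changes was not tested unless stated.

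With a replicate block, 4 genes (SLBP above RBFOX2), 40 pairs (SLBP above the K562 RBPs), 18 pairs (HEK293T above) and 5 pairs (K562 above) were counted, against 4, 40, 14 and 3 without it. The numbers are not known to pair samples. Deviations of libraries with the same number correlated at -0.248 between SLBP and RBFOX2 singleplex and at -0.402 to -0.00194 between lines. Between SLBP and RBFOX2 of the K562 pools they correlated at 0.242 and 0.298. With the SLBP and RBFOX2 numbers crossed, chosen after seeing the data, 4 genes were counted. Without the block of pools the tests of 1 RBP against 9 called 0 pairs in each line, as with it. SLBP replicate 2, with 19751 reads, limits H1-5 (10 reads) and H1-3 (32 reads), and H1-1 rests on 3 reads.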
